A study of Caenorhabditis elegans with 2 samples.

Results

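CEBP-2 ChIP-seq peaks at the promoters of protein-coding genes were examined in whole young adult Caenorhabditis elegans. The authors' main peak list, called on both replicates together, held 1419 peaks, which merged into 1374 regions where peaks shared at least 1 bp. Each region took as its summit that of its peak of highest signal. The 236 regions that overlapped a tRNA, snoRNA or snRNA gene were set aside, 60 of them with a summit in a promoter window, and 1138 regions were kept. A region counted as a promoter region when its summit lay in the stretch from 1000 bp before to 200 bp after a protein-coding gene's 5' end. This gave 347 promoter regions, or 30.5% of the kept regions (95% Wilson interval 27.9 to 33.2%), while the windows themselves cover 21.5% of the genome.

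The series holds 1 group with 2 biological replicates, both of strain OP331 and both collected as young adults at 64 h after synchronisation by starving L1 larvae. The strain carries wgIs331, a transgene in which cebp-2 (C48E7.11) is fused to TY1, EGFP and 3xFLAG tags, together with unc-119(+), in the unc-119(ed3) background. The labels differ on the antibody: their description says anti-GFP, which would precipitate the tagged protein, while their antibody field names cebp-2. The labels name no change to the endogenous cebp-2 gene, and the control experiment they name was not used here, so no value below is set against a control precipitation. The deposited files are peak lists, and sequencing depth is unknown. In whole animals, binding in fewer cells and weaker binding per cell cannot be told apart.

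CEBP-2 belongs to the C/EBP branch of the basic leucine zipper (bZIP) factors. Proteins of this branch bind DNA as dimers, through a basic region that contacts the major groove, and the vertebrate members recognise a palindromic site. They are known from vertebrates as regulators of metabolism, differentiation and stress responses. Promoters of Caenorhabditis elegans are often short, neighbouring genes can be transcribed away from each other from a shared stretch of sequence, and many genes lie in operons read from a single upstream promoter. The annotated 5' end is often a trans-splice site rather than the start of transcription, so distances below are to the annotated end of the gene.

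The sequences at the summits are shown first for promoter regions that lay between a divergent gene pair and were called in each replicate alone. These regions combine a position between the 5' ends of a pair with support from both replicates. The 8 of highest signal on chromosomes II to V and X follow, each as a window of up to 50 bp to either side of the summit, 5' to 3' along the strand of the nearest gene, in build ce11, with bases in annotated UTRs left out. Capitals mark the listed words that a search of both strands found, which are TTCNNGAA (the pattern of heat shock elements), a run of T or A, and CGCTCCAC, AGTGTGCG and ATACACTC, described further on.
F44E5.4 (chrII:11759410-11759510, minus strand): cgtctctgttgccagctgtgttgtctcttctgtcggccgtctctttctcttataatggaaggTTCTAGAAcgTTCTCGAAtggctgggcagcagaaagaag
rpl-12 (chrIV:13240652-13240731, minus strand): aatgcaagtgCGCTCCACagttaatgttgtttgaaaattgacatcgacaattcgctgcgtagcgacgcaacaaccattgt
Y17G9B.5 (chrIV:4750025-4750125, plus strand): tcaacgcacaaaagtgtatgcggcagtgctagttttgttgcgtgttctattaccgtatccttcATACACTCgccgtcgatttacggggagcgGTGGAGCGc
tasp-1 (chrIII:10759199-10759299, plus strand): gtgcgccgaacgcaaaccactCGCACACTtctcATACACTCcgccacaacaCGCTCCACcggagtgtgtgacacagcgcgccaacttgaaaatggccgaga
rpl-15 (chrIV:654886-654986, minus strand): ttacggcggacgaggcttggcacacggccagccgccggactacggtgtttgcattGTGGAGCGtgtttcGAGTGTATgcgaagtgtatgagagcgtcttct
Y55F3AR.2 (chrIV:1094295-1094395, plus strand): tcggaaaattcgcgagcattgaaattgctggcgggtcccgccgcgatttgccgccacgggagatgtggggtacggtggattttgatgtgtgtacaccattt
Y22D7AL.10 (chrIII:1619074-1619174, minus strand): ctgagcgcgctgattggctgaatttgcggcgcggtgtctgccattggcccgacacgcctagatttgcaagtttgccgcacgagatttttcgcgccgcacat
dnj-13 (chrII:11545425-11545525, plus strand): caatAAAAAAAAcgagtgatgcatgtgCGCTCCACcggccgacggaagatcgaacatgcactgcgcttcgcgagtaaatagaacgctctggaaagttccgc
A further 4 windows are shown because they hold an 8-letter word of the C/EBP type, capitalised with any of the recurring words.
Y39B6A.43 (chrV:18967830-18967904, minus strand): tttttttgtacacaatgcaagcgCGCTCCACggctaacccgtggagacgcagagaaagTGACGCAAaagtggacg
ntl-11 (chrIV:15471586-15471686, minus strand): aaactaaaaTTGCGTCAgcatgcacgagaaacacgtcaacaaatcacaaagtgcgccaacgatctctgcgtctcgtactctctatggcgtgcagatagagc
C32D5.8 (chrII:6346744-6346844, minus strand): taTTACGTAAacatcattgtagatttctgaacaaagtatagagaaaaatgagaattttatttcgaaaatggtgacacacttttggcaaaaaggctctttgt
epg-7 (chrX:7334529-7334629, plus strand): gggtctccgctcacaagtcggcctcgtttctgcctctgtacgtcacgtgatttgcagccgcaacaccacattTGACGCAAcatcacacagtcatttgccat
None of the first 8 windows held a C/EBP-type word. CGCTCCAC or its reverse complement stood in those of rpl-12, Y17G9B.5, tasp-1, rpl-15 and dnj-13 and in that of Y39B6A.43. The summit of the dnj-13 region lay in an intron of another gene, dhgd-1.

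The promoter region of highest signal belonged to rpl-3, a gene of the large ribosomal subunit, with its summit 291 bp before the 5' end. Its joint signal, the value the authors' peak caller gave on both replicates together, was 284.1. In the ranked lists of the single replicates, whose normalization is unstated and whose scales may differ, its signal was 121 in replicate 1 and 170 in replicate 2. The next region, with a joint signal of 278.8 and values of 151 and 135 in the replicates, lay 149 bp from F44E5.4 and 202 bp from F44E5.5, a divergent pair of Hsp70-family genes 351 bp apart. Both regions stood well above the third, 711 bp upstream of nspc-17, at 210.4. These values are a description of the list's top and carry no test.

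Ribosomal protein genes recurred among the 15 promoter regions of highest signal. The region 30 bp upstream of rpl-12 had a joint signal of 200.9, with 72.9 in replicate 1 and 125 in replicate 2. It also lay 363 bp upstream of lin-54, which encodes a DNA-binding subunit of the DREAM repressor complex. A region 165 bp upstream of Y17G9B.5 and 297 bp upstream of rpl-20 had 198.6 jointly, 69.8 in replicate 1 and 129 in replicate 2. Regions for rpl-15 (with K11H12.8 on the other side) and rpl-35 had joint signals of 171.6 and 156.5. The elongation factor gene eef-1A.2 also had a region of 156.5, 384 bp upstream, with 60.9 and 86.5 in the replicates.

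The other regions of the top 15 belonged to genes of varied function. The region 668 bp upstream of rpa-2, a subunit gene of the single-strand binding complex of DNA replication, had a joint signal of 206.7, with 66.0 in replicate 1 and 135 in replicate 2. Regions of 200.5 and 195.8 lay upstream of the F-box gene fbxb-58 and the insulin-like peptide gene ins-39, at 984 and 646 bp. The region of tasp-1, a taspase homologue, and K01G5.10 had 188.4, and that of mog-4, an RNA helicase gene of the sperm to oocyte switch, had 173.3. The region of hrpu-1, an hnRNP U homologue, had 161.1 and its summit in the 5' UTR, 18 bp after the 5' end, and that of Y55F3AR.2 and cct-8, a chaperonin subunit gene, had 157.8. In replicate 1 the 15 regions ran from 53.0 (ins-39) to 151, and in replicate 2 from 86.5 (eef-1A.2) to 170. All of them except hrpu-1, which was in the list of replicate 2 only, were called in both replicates alone. For the 3 regions of nspc-17, fbxb-58 and ins-39 replicate 2 gave 141, 147 and 144 against 60.1, 64.1 and 53.0 in replicate 1.

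Across all 347 promoter regions the joint signal ran from 46.5 to 284, with a median of 78.9 and quartiles of 70.8 and 94.6. The 791 kept regions outside promoters had a median of 74.4 and quartiles of 68.0 and 85.6, and reached 289, so the ranges overlapped almost completely. Most promoter regions, 332 of 347, were exactly 270 bp wide, the narrowest spanned 68 bp and the widest 480 bp, and 10 had been merged from more than 1 peak. The 5 regions under 270 bp were those of rpl-3 (132 bp), F44E5.4 (112 bp), fbxb-58 (68 bp), ins-39 (70 bp) and H41C03.3 (79 bp). By joint signal they ranked 1, 2, 6, 8 and 19, so several of the highest signals went with unusually narrow peaks. The relation of width to signal was not tested. The plot of signal by position shows the same spread.

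**Figure D1:**
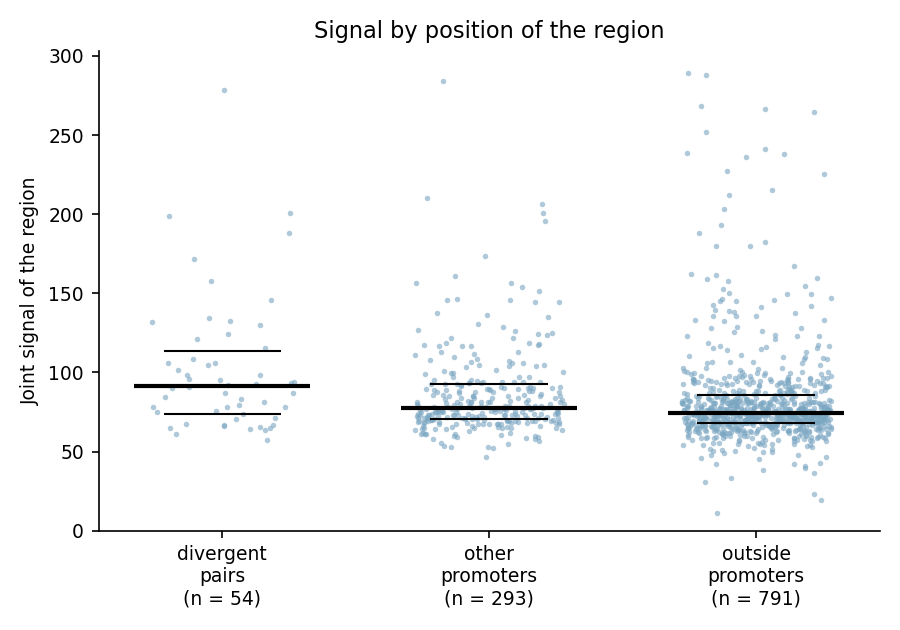
Joint signal of each kept region (points), for regions at divergent gene pairs, other promoter regions and regions outside promoters. The thick line is the median and the thin lines are the quartiles. The medians are 91.5, 77.8 and 74.4, and the 3 groups overlap over most of their range.

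Support from the single replicates was partial. In the own thresholded list of replicate 1 lay 67 of the 347 promoter regions (19.3%), against 15.2% of all kept regions. In that of replicate 2 lay 92 (26.5%), against 21.6%. Both own lists held 40 (11.5%, Wilson interval 8.58 to 15.3%), against 7.996% of kept regions and 6.45% of those outside promoters. The 228 others of the 347 outside either list (65.7%) were called only with both replicates together. The conservative list of the authors held 244 (70.3%), against 59.3% of kept regions. Since peaks share the same 2 libraries, no test was made over regions.

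Regions called in both replicates alone were mainly those of high joint signal. Of the 20 highest promoter regions 19 were in both own lists, of the 50 highest 34, of the 100 highest 39, and of the 100 lowest 0. Their median joint signal was 145, against 95.2 for the 27 in the list of replicate 1 only, 94.8 for the 52 in that of replicate 2 only and 73.6 for those in neither. Besides those of the top 15, examples in both lists were the regions of the ubiquitin ligase gene wwp-1, with 54.6 in replicate 1 and 92.2 in replicate 2, and of eel-1, another ubiquitin ligase gene, with 57.5 and 91.3. The region of cbp-1, the CBP/p300 acetyltransferase gene, gave 78.4 and 73.5.

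Nearly all promoter regions overlapped a peak in the much longer ranked list of each replicate, which holds weak peaks as well. A ranked peak was present in replicate 1 for 344 regions, in replicate 2 for 345 and in both for 342, against 1103, 1118 and 1085 of the 1138 kept regions. By its median rank, a promoter region stood in the top 2.01% of the 52508 ranked peaks of replicate 1 and in the top 1.34% of the 70327 of replicate 2. The top 5% of the ranked peaks held 249 of the regions in replicate 1 and 292 in replicate 2, against 719 and 898 of the kept regions. Across the 342 regions Spearman's rho between the replicate signals was 0.248, and across 743 regions outside promoters it was 0.047. These regions were selected for their joint signal and share the libraries, so the values describe the list only.

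**Figure D2:**
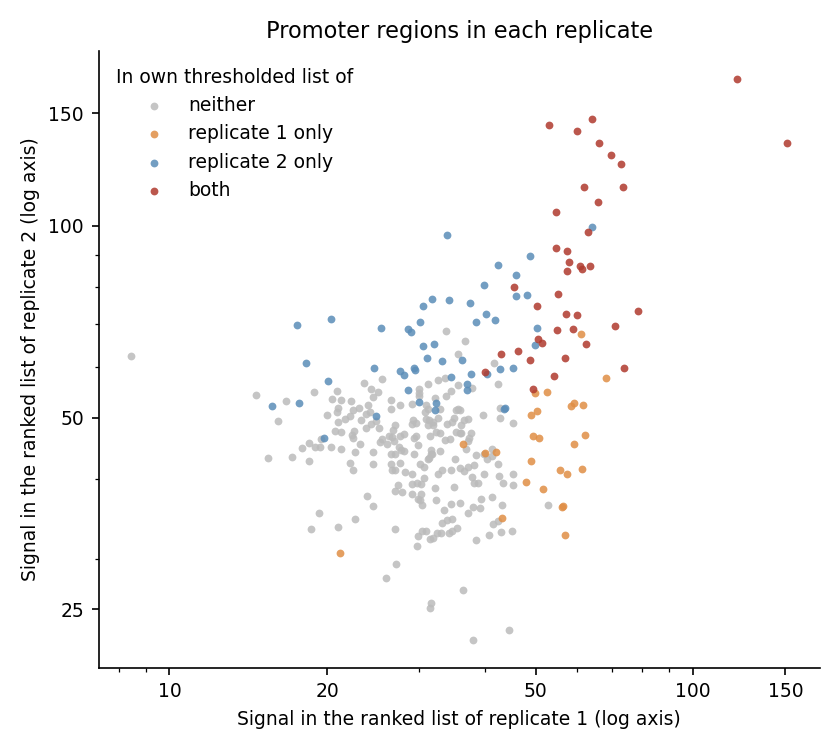
Signal of the promoter regions in the ranked list of replicate 1 (x axis, log) and of replicate 2 (y axis, log), coloured by the own thresholded lists that hold the region. The 40 regions in both lists (red) fill the upper right, and rpl-3 (121 and 170) and the F44E5.4/F44E5.5 region (151 and 135) stand apart from the rest.

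Summits were more frequent close to the 5' end than far upstream. The median position was 245 bp upstream (−245, quartiles −533 and −23.0), and the summits ran from 986 bp upstream to 196 bp downstream. From 300 bp upstream to 200 bp downstream lay 55.3% of the summits, against 44.8% of the bases of all promoter windows assigned to their nearest 5' end. There were 118 summits within 300 bp upstream and 74 at or after the 5' end. The fullest 100 bp bin was the first after the 5' end, with 48 regions (13.8%, against 9.22% of bases and 11.1% of the ranked promoter peaks).

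Signal was highest somewhat further upstream. Regions 100 to 200 bp upstream had a median joint signal of 93.6 (42 regions, 9 of them in both own lists), and those 200 to 300 bp upstream 90.3 (35 regions, 6 in both). In the bin just after the 5' end the median was 75.1, with 3 of 48 regions in both lists. In the 6 bins farthest upstream the medians stayed between 75.3 and 79.7. Each replicate's own list gave a median position of −192 (replicate 1, 72 regions) and −250 (replicate 2, 96 regions).

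**Figure D3:**
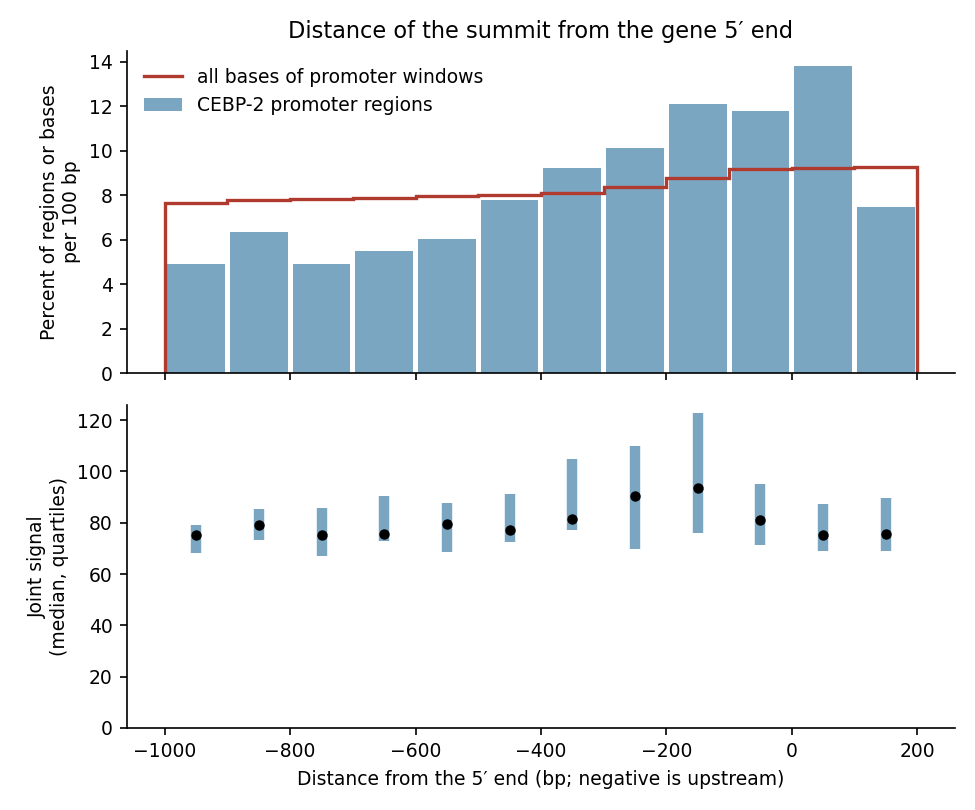
Top, percent of promoter regions (bars) and of all promoter window bases (line) in each 100 bp of distance from the nearest 5' end. Bottom, median (points) and quartiles (bars) of the joint signal in the same bins, highest from 300 to 100 bp upstream (90.3 and 93.6).

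At the edges of the window, the regions just inside belonged to rps-26 at 986 bp and fbxb-58 at 984 bp upstream (joint signals 79.0 and 200.5), and to phb-1, a prohibitin gene, at 196 bp and rla-1, a ribosomal stalk protein gene, at 185 bp downstream (75.4 and 89.3). Just outside were regions 1005 bp upstream of R12E2.13 (65.3) and 1018 bp upstream of kdp-1 (62.2). On the downstream side they were 204 bp into Y43B11AR.3 (158.8) and 205 bp into Y18D10A.4 (58.5).

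Of the summits, 196 (56.5%) lay outside protein-coding genes, 89 (25.6%) in a coding exon, 30 (8.65%) in an intron, 18 (5.19%) in a 5' UTR and 14 (4.03%) in a 3' UTR. Of the summits in coding exons, 50 were in the target gene itself and 39 in another gene only. The median joint signal was 83.7 outside genes and 74.0 in coding exons, and 30 of the 40 regions called in both replicates alone lay outside genes. Non-coding RNA genes overlapped 34 promoter regions, pseudogenes 4, and a piRNA and a miRNA gene 1 region each, the latter cel-mir-4936 in the region of nduf-9.

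The nearest 5' end gave each region 1 target gene, 337 genes in all or 1.69% of the 19973 protein-coding genes, and 404 genes had a summit in their window. A summit lay in the window of 1 gene in 282 regions, of 2 genes in 61 and of 3 in 4 (agt-1, sdhd-1, W02H5.19 and K10D2.5). There were 10 targets that had 2 regions (C47E8.11, C55B7.3, agt-1, gly-10, hrpu-1, hsp-1, lact-3, nhr-17, pkc-3 and rps-16). At hsp-1, which encodes the constitutive cytosolic Hsp70, these lay 425 bp upstream and 68 bp downstream with joint signals of 94.9 and 76.8. A gene on the same strand ended within 500 bp upstream of 106 targets (31.5%, Wilson interval 26.7 to 36.6%), against 18.1% of all protein-coding genes. Such close tandem genes include the downstream genes of operons, which were not identified here.

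Divergent gene pairs held 54 promoter regions (15.6%, Wilson interval 12.1 to 19.8%), where windows of a gene on each strand, facing away from each other, both held the summit. Of all promoter window bases 9.67% have such a position, as do 9.78% of the 23966 ranked promoter peaks. In the replicates' own lists 13 of 72 promoter regions (18.1%) and 23 of 96 (24.0%) were at divergent pairs. The joint signal of the divergent regions had a median of 91.5 (quartiles 73.9 and 114), against 77.8 (70.4 and 92.7) for the 293 others, with wide overlap. They made up 7 of the 20 promoter regions of highest signal, 14 of the 50 highest and 26 of the 100 highest. In both own lists were 9 divergent regions (16.7%) and 31 others (10.6%).

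The 5' ends of the pairs stood from 160 bp (C49G7.10/irg-2) to 1659 bp (mif-4/ipla-6) apart, with a median of 624 bp, and in 48 of 54 regions the summit lay between them. In 12 the distances to the 5' ends differed by at most 100 bp, as for the F44E5.4/F44E5.5 pair. In others the summit was close to one gene and far from its partner, as for tasp-1 at 58 bp and K01G5.10 at 727 bp. The 8 divergent regions of highest signal were those of F44E5.4/F44E5.5, rpl-12/lin-54, rpl-20/Y17G9B.5, K01G5.10/tasp-1, rpl-15/K11H12.8, cct-8/Y55F3AR.2, Y22D7AL.10/hsp-60 and F56G4.6/wbp-4, and all were in both own lists. The Y22D7AL.10/hsp-60 region, 195 bp from Y22D7AL.10 and 618 bp from the mitochondrial chaperonin gene hsp-60, had a joint signal of 146.0, with 58.0 in replicate 1 and 87.8 in replicate 2. Of these pairs 3 held a ribosomal protein gene and 3 a chaperone gene of the Hsp70, chaperonin or mitochondrial chaperonin kind.

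The gene bodies of F44E5.4 and F44E5.5 share 97.7% of their words of 36 bases, but the region between them holds no such word found elsewhere in the genome. Words of 36 bases found elsewhere were absent from 282 of the 347 regions and made up over 50% of 9 (R11A5.6, vps-39, eri-12, ddl-3, R09E10.1, rps-24, enu-3.3, ZK1053.2 and mmab-1). Smaller shares were present in others, as at rpa-2 (47.7%), mog-4 (34.5%) and eel-1 (30.6%). For all regions with such words the authors' treatment of reads that map to several places could change the signal. That treatment is not given in the sources used here.

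Among 36 gene lists made by gene symbol, cytosolic ribosomal protein genes had the highest share of targets, 12 of 81 (14.8%, Wilson interval 8.68 to 24.1%) against 1.69% of all protein-coding genes. With rpl-20, rps-19 and rps-23, the farther partners of divergent pairs, 15 had a summit in their window. The targets' joint signals ran from 79.0 to 284.1 with a median of 115.3, and the own lists held 4 of the genes as targets in replicate 1 and 9 in replicate 2. After rpl-3, rpl-12, rpl-15 and rpl-35 came rpl-7A (132.1, with 33.9 and 96.8 in the replicates) and rps-1 (121.1, with 50.4 and 69.2). The counts of the lists below are to be read against that share of 1.69%, and no list was tested.

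Other lists of protein synthesis and folding varied. Translation factor genes had 4 targets of 44 (9.09%), namely eef-1A.2 (156.5), eif-3.C (103.9), eef-1G (82.9) and iff-2 (77.9), the last encoding eIF5A. Chaperone genes had 4 targets of 62 (6.45%), dnj-13 (132.2), dnj-28 (101.7), hsp-1 (94.9) and dnj-4 (61.6), of which all but hsp-1 encode J-domain cochaperones, and cct-8 and hsp-60 had a summit in their window with a nearer partner. The list did not hold F44E5.4, whose name does not show its family. Mitochondrial ribosomal proteins had 1 target of 70 (1.43%; mrps-35, 77.3), and aminoacyl-tRNA synthetases 0 of 32 and proteasome genes 0 of 33.

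Nuclear genes of the respiratory chain had 6 targets of 71 (8.45%), of which nduf-9 of complex I was in both own lists (118.6, with 45.4 and 80.0), and the others in neither. Among these were cox-5B (89.6), cox-11 (78.9) and cox-5A (77.3) of cytochrome oxidase and its assembly. Histone genes had 8 targets of 82 (9.76%), led by his-37 (112.9, in the list of replicate 1), his-60 (93.4), his-47 (91.2) and his-61 (82.8). In 6 of these 8 the summit was over 500 bp upstream of the target, and histone genes are clustered and near-identical in sequence, so the assignment to a single histone gene is uncertain.

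The transcription machinery list had 5 targets of 93 (5.38%), the Integrator subunit gene ints-4 (90.2), the Mediator genes mdt-17 (73.7) and mdt-26 (73.6), rpc-2 of RNA polymerase III (71.8) and cdk-9, the kinase of elongation control (66.2). Of these, ints-4 was in the list of replicate 2 and the rest in neither. Chromatin factors had 3 of 82 (3.66%), the H3K4 methyltransferase gene set-16 (130.0, with 61.0 and 67.6), hmg-1.1 (101.3) and swsn-7 (67.9). The small RNA pathway had 3 of 58 (eri-12, rrf-1 and eri-5, at 80.1 to 89.0), splicing and snRNP proteins 3 of 57 (lsm-8, snr-6 and lsm-6, at 69.0 to 73.3), and cell cycle and replication genes 3 of 70 (rpa-2, cdc-48.1 at 123.4 and cdk-9). Kinase signalling genes had 3 of 46 (pkc-3, kin-35 and kin-14, at 67.4 to 70.9) and cytoskeletal genes 3 of 74 (dlc-1, tba-1 and dli-1, at 73.1 to 95.6).

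The shares of large gene families were near or below that of all genes. F-box genes had 4 of 360 (1.11%, Wilson interval 0.433 to 2.82%), fbxb-58 (200.5), fbxl-2 (89.5), fbxa-176 (71.2) and sdz-19 (69.0), and detoxification genes 4 of 218 (1.83%), mrp-5 (94.0), sod-5 (75.2), ugt-22 (70.3) and gst-9 (52.1). Nuclear hormone receptors had 1 of 269, the collagen list 1 of 194, C-type lectins and lysozymes 0 of 256 and homeobox genes 0 of 77. The target in the collagen list was dpy-11 (95.5), which was taken in by its symbol and is not itself a collagen gene. The unfolded protein response list had 0 of 24, though hsp-60 had a summit in its window, and the list of infection response and p38 pathway genes 0 of 61, though irg-2 (93 bp upstream, joint signal 106.2) and pals-21 had a summit in their window. Vitellogenins had 0 of 6. Of the marker lists, intestine had 1 of 10 (asp-1, 57.8) and muscle, neurons, germline and hypodermis had 0 each. Of the remaining lists, vacuolar ATPase and autophagy genes had 3 of 41 (7.32%), ubiquitin system genes 2 of 73, vesicle trafficking genes 2 of 133, lipid metabolism genes 1 of 103, neuropeptide genes 1 of 144 and nuclear pore and transport genes 0 of 40. In all, 78 of the 337 targets were in any list, and the share of all protein-coding genes in any list was not counted.

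**Figure D4:**
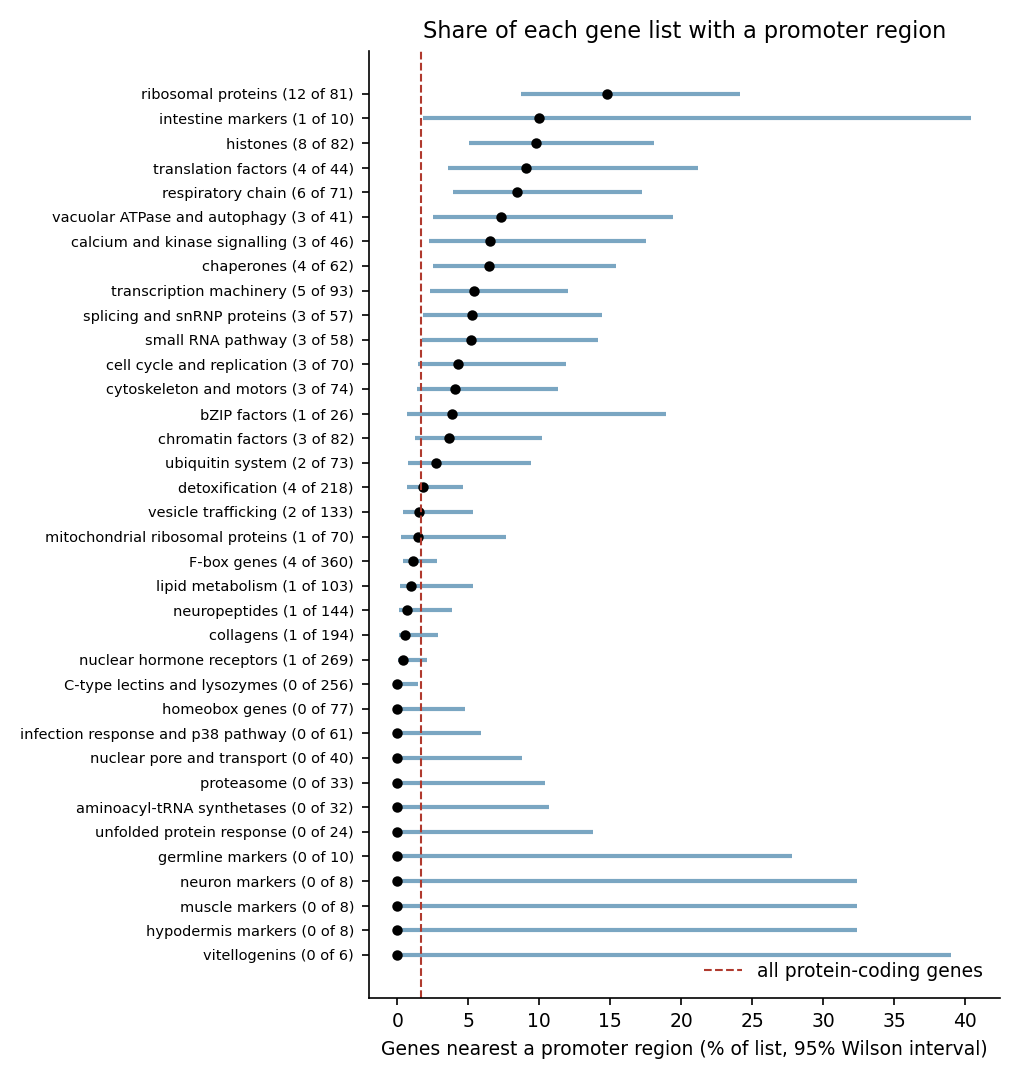
Percent of the genes of each list that were the target of a promoter region (points), with 95% Wilson intervals (lines) that cover the counting of genes only; the dashed line is the 1.69% of all protein-coding genes. Ribosomal proteins (14.8%) have the highest point, and 12 lists have 0 targets.

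Among 26 bZIP genes the sole target was cebp-1, the other C/EBP-family gene of the worm. Its region lay 753 bp upstream at chrX:1454486-1454755 with a joint signal of 76.5, with 26.8 in replicate 1 and 45.9 in replicate 2, and was in neither own list. The gene cebp-2 itself had no summit of the main list in its window and no peak of the joint ranked list, while the ranked lists of the replicates held 1 peak there, with a signal of 12.3. The region nearest to it lay 971 bp downstream of its 5' end, at chrI:6253918-6254187, in an intron of lpd-2. That region had a joint signal of 73.3, stood in the top 0.872% of the ranked peaks of replicate 1 and the top 2.26% of those of replicate 2, and counted as a promoter region of let-611, 982 bp away. It was in the list of replicate 1 only. The transgene also carries cebp-2, and how far it reaches around the gene was not examined. Reads of transgene and endogenous copies at this locus cannot be told apart in peak lists.

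Promoter regions were spread over all 6 chromosomes, with IV holding the most. Chromosome IV held 92 (26.5%), against 28.9% of all kept regions and 16.4% of protein-coding genes, and V held 46 (4994 of the 19973 protein-coding genes lie there). I and II held 64 each, III held 48 and X held 33 (9.51%, against 13.7%).

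The summit windows were richer in G and C than promoters in general. The mean GC content of these windows around all 347 summits was 47.3%, against 35.2% in 259644 windows of the same length tiled every 100 bp over the promoters of all protein-coding genes. It was 50.2% for divergent pairs, 48.5% for promoter summits outside genes and 47.8% for promoter summits in coding exons. Kept regions outside promoters gave 47.5%. The sonicated input was not analysed here.

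Words of the C/EBP type were rare. The palindrome TTGCGCAA was in 3 of 347 windows (0.865%, Wilson interval 0.294 to 2.51%), against 0.156% of tiled windows and 0.253% of regions outside promoters. TTACGTAA was in 1 (0.288%, against 0.0928% of tiled windows). The C/EBP-ATF composite TGATGCAA was in 4 (1.15%, against 0.420%) and the C/EBP-CRE composite TGACGCAA in 3 (0.865%, against 0.206%). In regions outside promoters TTACGTAA was in 0%, TGATGCAA in 0.885% and TGACGCAA in 0.379%. The loose pattern TTNCNNAA, which holds the first 2 of these words, was in 103 (29.7%), between the 43.4% of tiled windows and the 23.9% of regions outside promoters. In all, 11 regions held 1 of the 4 specific words. Their median joint signal was 81.8 and 1 of them, that of F44E7.5 with 63.5 in replicate 1 and 86.5 in replicate 2, was in both own lists.

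Words rich in A and T were less frequent than in tiled promoter windows. A run of 8 T or A was in 4.32% against 11.5%, the GATA word TGATAA in 4.61% against 10.3% and TATAAA in 5.48% against 12.5%. The GC box GGGCGG was in 5.19% against 1.79%, and the E-box CACGTG in 3.17% against 1.69%. In kept regions outside promoters these 5 words were in 3.29%, 5.31%, 4.80%, 3.92% and 4.05%, in that order, each on the same side of the tiled share as in promoter regions. TTCNNGAA was in 6.34% against 6.93%, and in the F44E5.4/F44E5.5 window it occurred at 2 neighbouring places. These differences run along with the GC content given above, and its part in them was not tested.

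After sequences of these regions had been read, 4 words were chosen and counted, so their counts are a description of the regions that prompted them. CGCTCCAC and ATACACTC recurred in the windows printed above. AGTGTGCG stood in that of tasp-1 only, and GCGCCAGC in none of them. CGCTCCAC was in 12 promoter windows (3.46%), against 0.208% of tiled windows and 0.506% of regions outside promoters. The word was read from windows chosen as divergent, called in both replicates and of high signal, and 5 of the 12 are among those 8 windows. Of the other 7 regions 4 were at divergent pairs and 0 in both own lists, and their median joint signal was 69.8. The 8 windows are of the 9 divergent regions in both own lists. For the 4 divergent regions, absence from both lists therefore follows largely from that choice. Beside the regions printed above the 12 were those of rps-1, scpr-1, lin-9, K10D2.5, efl-1 and gsp-2. The genes lin-9 and efl-1 encode a DREAM subunit and an E2F-like factor, and lin-54 is the partner of rpl-12. These 3 were picked out after the names were seen, and the share of such genes among all targets was not counted. The E2F word TTCCCGCC was in 1 of the 347 promoter windows (0.288%), against 0.383% of tiled windows and 0.759% of regions outside promoters. ATACACTC was in 4 windows (1.15%, against 0.183% of tiled windows), of which 3 (Y17G9B.5, tasp-1 and rpl-15) are those it was read from, and the other is that of rps-1.

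The word AGTGTGCG was in 11 windows (3.17%, against 0.163% of tiled windows), with the highest signals at rpl-3, tasp-1 and rpl-35. Of the 10 outside the windows printed first, 4 were in both own lists, but these 10 may include regions from which the word was read. The word GCGCCAGC was in 13 (3.75%, against 0.119%), of which 0 were in both own lists, with a median joint signal of 87.1. The words other than ATACACTC are rich in G and C, as the windows are. A match is a description of the letters in a window and not a binding site.

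**Figure D5:**
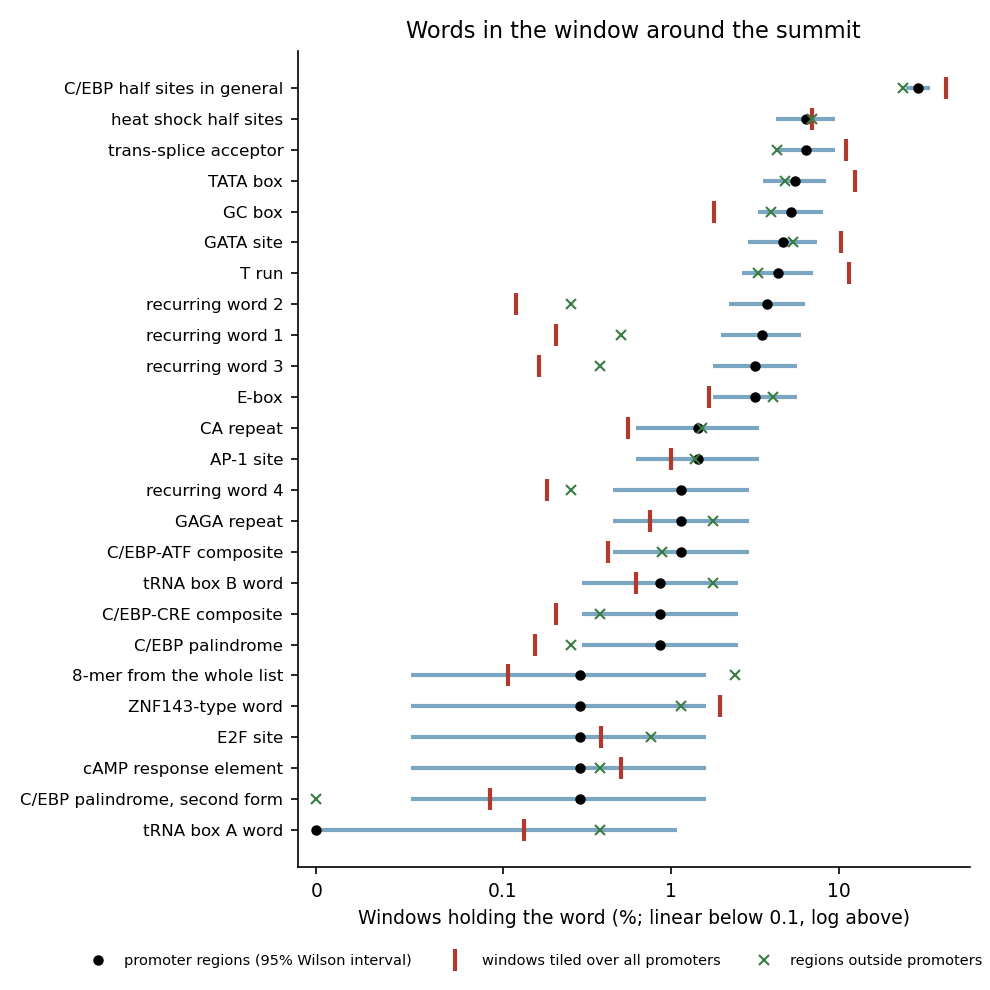
Percent of windows of 50 bp to either side of the summit that hold each word on either strand, for promoter regions (points with 95% Wilson intervals), windows tiled over all promoters (bars) and regions outside promoters (crosses). The recurring words 1 to 4 are CGCTCCAC, GCGCCAGC, AGTGTGCG and ATACACTC and were chosen after the windows were read; the first 3 stand at 3.17 to 3.75% against 0.119 to 0.208% of tiled windows.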

How the data were processed

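ChIP-seq peak lists of 2 biological replicates of 1 group were analysed, and no read counts were used, so depth is unknown. Per the file headers, each replicate has its own alignments to build ce11, and the thresholded lists derive in addition from a further file whose content is not named. Which peak caller made them, and how, is not given in the sources used here. Each deposited peak carries a signal value of the authors' caller, of unstated normalization, and a score that rises with reproducibility, with 830 as the lowest score in the main list. The ranked lists also carry the deposited −log10 of the irreproducible discovery rate, which was not used for any value here. How the lists of single replicates were normalised is not stated, so they are compared by overlap and rank. Signals of the 2 replicates printed side by side describe each list and do not measure a difference between replicates. In the joint ranked lists, 16 columns with values of unnamed parts were not used.

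With Python 3.11.15, numpy 2.4.6 and scipy 1.17.1, peaks were merged, regions over tRNA, snoRNA and snRNA genes of Ensembl release 115 dropped, and summits assigned to promoter windows. Regions counted as shared from 1 bp of overlap. A target is the gene of the nearest 5' end among the windows that hold the summit, and 1 region gives 1 target. Merging and assignment were tested on simulated data. Intervals are 95% Wilson intervals and cover the counting of regions or genes only. No test was made, since there is 1 group and regions share its libraries. The text names the 15 regions of highest signal, up to 15 in both own lists, the 8 highest at divergent pairs, 2 on each side of each window edge, up to 4 targets by signal of each gene list with at least 3, and every target of the bZIP and transcription lists, with cebp-2 and its nearest region. Other names stand where a count of 10 or fewer is spelled out or as examples, chosen after their values were seen. The members, lists, words and alternatives were chosen with earlier results of these data known, and gene lists were corrected for renamed genes after a first look. Alternatives used other lists, a signal minimum, unmerged peaks, other windows, other 5' ends, other overlaps and other word windows. One of the gene lists is not reported here by its named targets.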

Additional observations from a re-analysis of the deposited data

How the results depend on the processing

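The promoter share stayed above the share of the genome that the windows cover under every list, window and 5' end run, while counts moved with the list and the window. Without one replicate, the own lists gave 72 to 96 promoter regions (36.5 to 38.5% of kept regions), 72 to 95 targets, 13 to 23 divergent regions and median distances of −250 to −192. The conservative list gave a promoter share of 34.6% and a median signal of 84.2. Regions at or above the median signal gave 185 promoter regions (36.6%), 183 targets and a median signal of 93.9, which the minimum itself raises. The window of 500 bp upstream to 100 bp downstream gave 227 regions (19.9%, against 11.2% of the genome), 27 divergent regions, a median distance of −153 and a median signal of 81.5. The window that ends at the 5' end gave 24.9% (against 18.2% of the genome) and a median distance of −367. The 5' ends of all transcripts gave 36.8% (against 26.1%), and keeping regions over small RNA genes gave a median distance of −303. Unmerged peaks, and sharing defined by 50% of the region or by summits within 100 bp, moved no value beyond the limits set (1.5 times for counts).

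Ribosomal protein targets numbered 12 or 13 with the conservative list, the signal minimum and small RNA genes kept, 10 in the narrower window, and 4 and 9 in the own lists. Targets of the other lists with at least 5 fell to 3 respiratory chain, 5 histone and 1 transcription machinery gene at the median signal, to 2 histone genes in the narrower window, and to 0 to 2 in the own lists; the conservative list left 3 transcription machinery genes. Within 25 bp of the summit TGATGCAA and TTACGTAA were in 0 regions and TGACGCAA in 0.288%, while TTGCGCAA stayed at 0.865% within 25, 50 and 100 bp. The E-box ran from 1.44% within 25 bp to 6.05% within 100 bp, a longer window holding more words. Tiled windows weighted by the distances of the promoter regions held CGCTCCAC in 0.219% and the palindrome TTGCGCAA in 0.156%. The planned median signal of the own lists was not compared, since the normalization of those lists is unstated. No paired analysis was possible because there is 1 group. With unknown depth, a promoter with no region in the list cannot be called unbound.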

Other observations

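Of 1535 peaks in the joint ranked list with a score of at least 830, the lowest score in the main list, 116 were not in the main list. With the same rule 6 of them were at promoters. Of these, 2 overlapping peaks lay upstream of Y62E10A.3, at 653 and 864 bp, with joint signals of 192.6 and 159.2. They would merge into 1 region, at 192.6 above the lowest of the 15 promoter regions of highest signal. The others were upstream of Y80D4G.2 (146.3), clec-9 (95.3), mig-32 (44.1) and fbxa-75 (8.7). The sources used here do not give the step that left them out.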
